A study of Sus scrofa with 5 samples.

Results

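The miR-181 family was followed through exosomes, the small vesicles that cells shed into body fluids, of Rongchang pigs at postnatal day 180. The members are the names of the deposited miRNA lists that begin with miR-181 after the species prefix ssc-, which is left out after this paragraph. There were 5 of them among 411 listed names: ssc-miR-181a, ssc-miR-181b, ssc-miR-181c, ssc-miR-181d-5p and ssc-miR-181d-3p. The fluids were serum, urine, bile, plasma and semen, each sequenced as 1 small RNA library from animals of the same breed and age with no treatment named in the labels. The labels state neither how many animals each library stands for nor whether any animal gave more than 1 fluid.

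MicroRNAs are short RNAs that guide Argonaute proteins to messenger RNAs, mainly through the seed near their 5′ end, and lower the output of those messengers. The miR-181 family is conserved among vertebrates, and its 5p products share a seed and differ from each other at few positions. In mouse and human cells the family is known from lymphocytes, where miR-181a tunes the sensitivity of the T cell receptor in mouse, and from endothelium, where miR-181b dampens NF-κB signalling in mouse. In the RefSeq annotation of assembly Sscrofa11.1, which is not the build of the deposited lists, 6 pig miR-181 genes form 3 neighbouring pairs. MIR181A-1 neighbours MIR181B-1, MIR181A-2 neighbours MIR181B-2 within the span of NR6A1, and MIR181D neighbours MIR181C, which is followed by MIR23A. The deposited names do not separate the paired copies of miR-181a or those of miR-181b.

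The libraries held from 26522 miRNA counts in urine to 2284926 in semen, and 84 of the 411 names were above 0 in urine, against 161 to 180 in the other fluids. Levels below are counts divided by the sum of the listed miRNA counts of the library and multiplied by 1000000 (CPM), unless another scale is named. Intervals are exact 95% intervals for counting error only, because there were no replicates and no molecular identifiers are named. Differences are therefore between libraries, and no p-value is given. No library lists a count between 0 and 10, so a name listed at 0 can stand for up to 9 reads. The labels do not say how reads that match several family members were counted, so the split between closely related names is uncertain. Markers of bile, urine and semen followed the labels, while the labels of serum and plasma were not checked in this way. The hepatocyte names (miR-122, miR-192, miR-194a) took 19.7% of the bile counts and at most 1.70% elsewhere. In bile miR-192 gave 229971 of their 328902 counts and miR-122 gave 91481. The kidney epithelium names (miR-204 and both arms of miR-30a) took 23.4% in urine, and the male germ cell names miR-34c and miR-202-5p were above 0 in semen alone.

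Levels here are relative to a library's reads and give no amount per vesicle or per volume of fluid. The family level was highest in the serum exosome library, and on CPM as listed each of the 4 members above 0 was highest there. For miR-181c this rests on 12 counts and was within counting error of semen and bile. It also takes the listed 0 in urine as 0, where 9 counts would be 339 CPM. The family summed to 1739 counts or 3675 CPM in serum (3505 to 3852), 22 counts or 830 CPM in urine (519.9 to 1256), 1048 counts or 626 CPM in bile (589 to 665), 355 counts or 308 CPM in plasma (277 to 341) and 412 counts or 180.3 CPM in semen (163 to 199). Serum stood 4.43 times above urine (2.92 to 7.09), 5.87 times above bile (5.43 to 6.34), 11.9 times above plasma (10.6 to 13.4) and 20.4 times above semen (18.3 to 22.7). The urine sum was miR-181a alone, the other names being listed at 0. With each listed 0 read as 10 counts, miR-181d-3p included in both libraries, serum was 1.58 times urine. Most of the urine counts are then assumed, so no counting interval is given. As listed, urine and bile did not differ beyond counting error, at 1.32 times (0.826 to 2.02). At the bile share urine would have held 16.6 family counts, but it could hold 49 if miR-181b, miR-181c and miR-181d-5p each stood for 9 reads. Bile over plasma was 2.04 times (1.80 to 2.30) and plasma over semen 1.71 times (1.48 to 1.97). The order below serum depended on the scaling of the libraries. With edgeR TMM library sizes, with DESeq2 size factors, or without miR-378, miR-320 and miR-423-5p, which dominate plasma, plasma stood second and above bile. On CPM, with each listed 0 taken as 0, 4 of 4 members above 0 were highest in serum, where 37.1% of the 237 names above 0 in any library were also highest. With TMM or DESeq2 size factors it was 2 of 4, beside 20.7% and 19.8% of all names, and on the authors' RPM or without each library's leading miRNA 3 of 4, beside 16.9% and 32.5%.

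**Figure D1:**
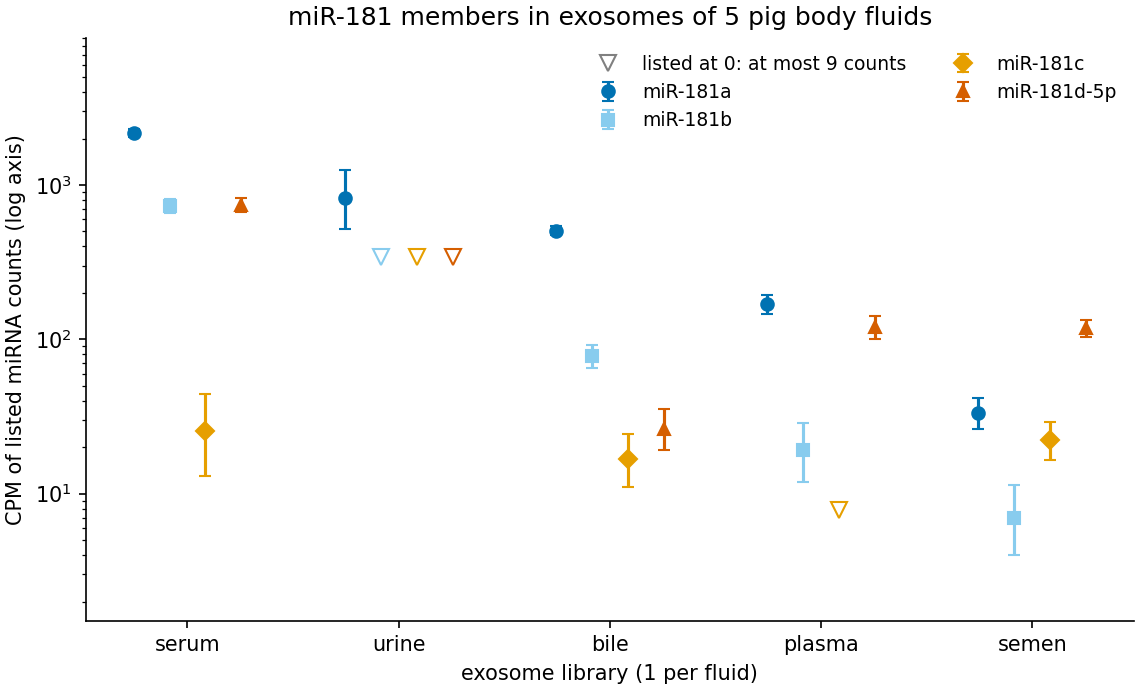
Level of each miR-181 member in CPM of listed miRNA counts (log axis) in the exosome library of each fluid; bars are exact 95% intervals for counting error, and open triangles mark names listed at 0, drawn at the CPM of 9 counts. miR-181a is the highest point in serum, urine, bile and plasma, and miR-181d-5p is the highest in semen at 118 CPM.

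miR-181a, the member best known from T cells, was the most widely listed and the only one above 0 in all 5 libraries. It had 1030 counts in serum (2177 CPM), 22 in urine (830 CPM), 846 in bile (506 CPM), 195 in plasma (169 CPM) and 76 in semen (33.3 CPM). By abundance it ranked 46th of 180 names in serum, 56th of 179 in bile, 60th of 84 in urine, 67th of 161 in plasma and 123rd of 174 in semen. On CPM each step down this order exceeded counting error: serum over urine was 2.62 times (1.72 to 4.21), urine over bile 1.64 times (1.02 to 2.5005), bile over plasma 2.99 times (2.56 to 3.51) and plasma over semen 5.08 times (3.88 to 6.71). The step between urine and bile barely cleared counting error, with 22 counts in urine. From serum to semen miR-181a spanned 65.4 times (51.8 to 83.7). The step of bile over plasma turned round under 3 of the 5 other scalings, to 0.58 times with TMM (0.493 to 0.677), 0.45 with DESeq2 size factors and 0.48 without the plasma-dominating miRNAs.

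miR-181b, whose genes neighbour those of miR-181a, followed the same order on CPM over the 4 fluids that list it. Its step between serum and bile was larger than that of miR-181a. Between plasma and semen its step was smaller, but within counting error of that of miR-181a, at an odds ratio of 1.86 (0.864 to 3.94). It had 345 counts in serum (729 CPM), 130 in bile (77.7 CPM), 22 in plasma (19.1 CPM) and 16 in semen (7.00 CPM), and was listed at 0 in urine. Serum stood 9.38 times above bile (7.65 to 11.6), bile 4.07 times above plasma (2.58 to 6.73), and plasma 2.72 times above semen (1.37 to 5.55). Bile over plasma turned to 0.79 times with TMM (0.497 to 1.30), 0.61 with DESeq2 size factors and 0.66 without the plasma-dominating miRNAs, each within counting error of 1. At the serum share, the urine library would have held 19.3 counts of miR-181b, and at the bile share 2.06, which the lists would not show. Its absence from the urine list therefore places urine below serum on CPM, by at least 1.93 times with urine read as 10 counts (lower end of the counting interval 1.04). That bound was not worked out under the other scalings, and the absence says nothing against bile.

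miR-181d-5p had another order. It had 352 counts in serum (744 CPM), 138 in plasma (119.6 CPM), 269 in semen (118 CPM) and 44 in bile (26.3 CPM), and was listed at 0 in urine. On CPM plasma and semen could not be separated, at a ratio of 1.02 (0.821 to 1.25). Plasma was 5.74 times semen with TMM, 5.56 with DESeq2 size factors and 6.29 without the plasma-dominating miRNAs, but 0.77 times semen on RPM (0.622 to 0.947). Serum was 6.22 times above plasma (5.09 to 7.63), and semen was 4.48 times above bile (3.25 to 6.31), the reverse of the order that miR-181a and miR-181b showed for these fluids. Semen over bile stayed between 4.11 and 6.45 times under the 5 other scalings. By abundance miR-181d-5p ranked 70th in serum, 80th in plasma, 87th in semen and 133rd in bile. Urine at the serum share would have held 19.7 counts, so on CPM urine was below serum by at least 1.97 times with urine read as 10 counts (lower end 1.06). This bound too was worked out on CPM only. At the plasma or semen share urine would have held about 3 counts (3.17 and 3.12).

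miR-181c, encoded beside miR-181d, was scarce wherever it was listed, at 12 to 51 counts. It had 12 counts in serum (25.4 CPM, 13.1 to 44.3), 51 in semen (22.3 CPM, 16.6 to 29.3) and 28 in bile (16.7 CPM, 11.1 to 24.2). It was listed at 0 in plasma, where 9 counts would be 7.80 CPM, and in urine, where 9 counts would be 339 CPM. Urine could therefore not be placed against the other fluids. Serum over semen was 1.14 times (0.551 to 2.16), serum over bile 1.52 times (0.702 to 3.08) and semen over bile 1.33 times (0.825 to 2.20), so these 3 fluids could not be ordered on CPM at this depth, and differences up to the ends of those intervals are not shown to be absent. On RPM serum stood at 0.24 times semen (0.116 to 0.456). With plasma read as 10 counts, serum was at least 2.93 times above plasma (lower end 1.16) and semen at least 2.58 times (lower end 1.29). The opposite arm, miR-181d-3p, was listed at 0 in all 5 libraries.

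Against a limit of 2-fold, with a listed 0 in the lower fluid read as 10 counts, 1 of 4 members was higher in serum than in urine, where 21.2% of all names tested passed the same limit. The counts were 3 of 4 over bile (56.0% of all names), 4 of 4 over plasma (71.8%) and 3 of 4 over semen (56.4%). Most listed names lay higher in serum than in plasma, bile or semen, so these counts are no result about the family. In the other direction 1 member of 4, miR-181d-5p, was at least 2-fold higher in semen than in bile (29.8% of all names) and in plasma than in bile (30.5%). miR-181a and miR-181b were at least 2-fold higher in bile than in semen, 2 of 4 members against 37.5% of all names.

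The general shift between libraries was taken out by reading each ratio against the median name above 0 in both libraries, a difference that no scaling of the libraries changes. That median, on the log2 scale of serum over the other fluid, was 0.00 for urine (75 names), 1.40 for bile (150 names), 2.57 for plasma (139 names) and 1.44 for semen (143 names). Relative to it the family as listed stood in serum 4.43 times above urine, 2.22 times above bile, 2.01 times above plasma and 7.49 times above semen. The value for urine rests on miR-181a alone in urine. The median name against urine also comes only from names that reached 377 CPM there, the level of 10 counts. Against bile miR-181a stood at 1.63 times and miR-181b at 3.56 times the median name, with 58 and 37 of 150 names at least as far towards serum. Against plasma they stood at 2.173 and 6.45 times, with 42 and 19 of 139 names at least as far. Against urine miR-181a stood at 2.62 times, with 18 of 75. miR-181a was 24.1 times and miR-181b 38.3 times higher in serum than in semen relative to the median name, and 11 and 8 of the 143 names lay at least as far towards serum as each of them. miR-181d-5p lay on the median name between serum and plasma, at 1.05 times (67 of 139 names at least as far), at 2.32 times against semen (44 of 143), and 10.7 times towards serum against bile, where 15 of 150 names lay at least as far. miR-181c lay below the median name, at 0.574 times for serum over bile (95 of 150) and 0.418 times for serum over semen (96 of 143).

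The make-up of the family differed most in semen. There miR-181d-5p held 65.3% of the family's counts (60.5 to 69.9), miR-181a 18.4% (14.8 to 22.5), miR-181c 12.4% (9.36 to 16.0) and miR-181b 3.88% (2.24 to 6.23). In the other fluids miR-181a led. It held 59.2% in serum (56.9 to 61.6), 80.7% in bile (78.2 to 83.1) and 54.9% in plasma (49.6 to 60.2), and in urine at least 44.9% if each of the 3 members listed at 0 stood for 9 reads. miR-181d-5p held 20.2% in serum (18.4 to 22.2), 4.20% in bile (3.07 to 5.60) and 38.9% in plasma (33.8 to 44.2). These shares are taken within 1 library and do not depend on how libraries are scaled.

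**Figure D2:**
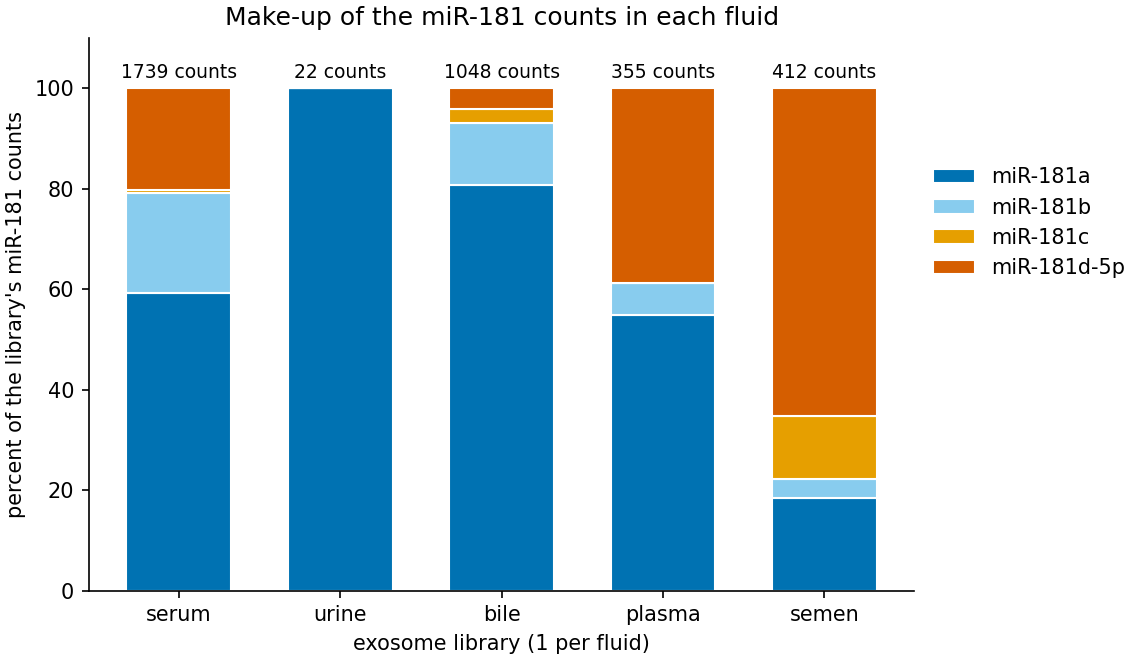
Share of each member in the miR-181 counts of a library, in percent, with the number of miR-181 counts above each bar. miR-181a fills more than 50% of the bars of serum, bile and plasma and the whole urine bar, which rests on 22 counts and leaves out up to 9 reads for each name listed at 0, while miR-181d-5p fills 65.3% of the semen bar.

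The ratio of miR-181d-5p to miR-181a was 3.54 in semen, 0.708 in plasma, 0.342 in serum and 0.0520 in bile. As odds ratios, semen was 4.99 times above plasma (3.53 to 7.10), 10.3 times above serum (7.75 to 13.9) and 67.6 times above bile (45.0 to 103), and all 6 pairs of these libraries differed beyond counting error. Changes of the size seen against plasma and serum were common between arbitrary names, and those of the size seen against bile were less so. Of all pairs of names above 0 in both libraries, 66.3% moved at least as much between semen and plasma, 40.0% between semen and serum, and 11.2% between semen and bile. A change of the leading name was not particular to miR-181 either. Of 14 families with lettered members and at least 100 counts in semen and in serum, 5 (35.7%) had another leading name in semen: miR-181, let-7, miR-10, miR-23 and miR-146.

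Because miR-181b and miR-181d are close in sequence, both names were also summed, an alternative chosen after the values were seen. Together they held 69.2% of the family in semen (64.5 to 73.6), 45.1% in plasma (39.8 to 50.4), 40.1% in serum (37.8 to 42.4) and 16.6% in bile (14.4 to 19.0). Among the libraries that listed either name, semen kept the highest share and bile the lowest, whichever of the pair received the shared reads. Urine listed neither name and could not be placed. Plasma and serum could then not be separated by their intervals.

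Within the pair miR-181a and miR-181b, the share of miR-181a was 89.9% in plasma (85.1 to 93.5), 86.7% in bile (84.4 to 88.8), 82.6% in semen (73.3 to 89.7) and 74.9% in serum (72.5 to 77.2). Among these libraries serum thus held the most miR-181b per miR-181a. The odds of miR-181a over miR-181b were 2.18 times higher in bile than in serum (1.74 to 2.74) and 2.97 times higher in plasma than in serum (1.87 to 4.93), and the other 4 of 6 pairs of libraries had intervals that include 1. Semen over serum was among these, at 1.59 times (0.904 to 2.96). Urine listed miR-181a alone and could not be placed. Its ratio of miR-181a to miR-181b was at least 2.2 with miR-181b read as 10 counts, against 2.99 in serum.

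Within the pair miR-181c and miR-181d, miR-181d-5p was the larger member in every library that listed either, but by unequal amounts. It had 29.3 counts per count of miR-181c in serum, 5.27 in semen and 1.57 in bile, and at least 13.8 in plasma with miR-181c read as 10 counts. In bile its share of the pair, 61.1% (48.9 to 72.4), was within counting error of equal shares. Serum over bile was an odds ratio of 18.4 (8.39 to 42.9), serum over semen 5.55 (2.85 to 11.7), and semen over bile 3.34 (1.83 to 6.07). The pair together held 77.7% of the family's counts in semen (73.3 to 81.6), 38.9% in plasma, 20.9% in serum (19.0 to 22.9) and 6.87% in bile (5.41 to 8.57). miR-23a, whose gene follows MIR181C, stood at 12452 CPM in serum, 452 in urine, 408 in plasma, 332 in bile and 168 in semen, so semen was its lowest fluid on CPM.

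The scaling of the libraries decided how far serum stood above plasma. 3 miRNAs that lead the plasma library, miR-378, miR-320 and miR-423-5p, take 83.9% of its counts. Without them in every library's total, the family in serum was 2.001 times plasma. It was 1.21 times with edgeR TMM library sizes, 1.17 times with DESeq2 size factors and 3.33 times on the authors' RPM, which divides by a larger read total. miR-181d-5p changed direction, to 0.63 times with TMM (0.516 to 0.772) and 0.61 times with DESeq2 size factors, where plasma was its highest fluid. miR-181a and miR-181b kept serum as their highest fluid under all 6 scalings. miR-181c was highest in semen under 4 of them: RPM, TMM, DESeq2 size factors, and a total that leaves out each library's leading miRNA. Of these, only RPM separated semen from serum beyond counting error. Serum over semen was 0.65 times with TMM (0.316 to 1.24), 0.61 with DESeq2 size factors (0.296 to 1.16) and 0.65 without the leading miRNA (0.318 to 1.24).

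**Figure D3:**
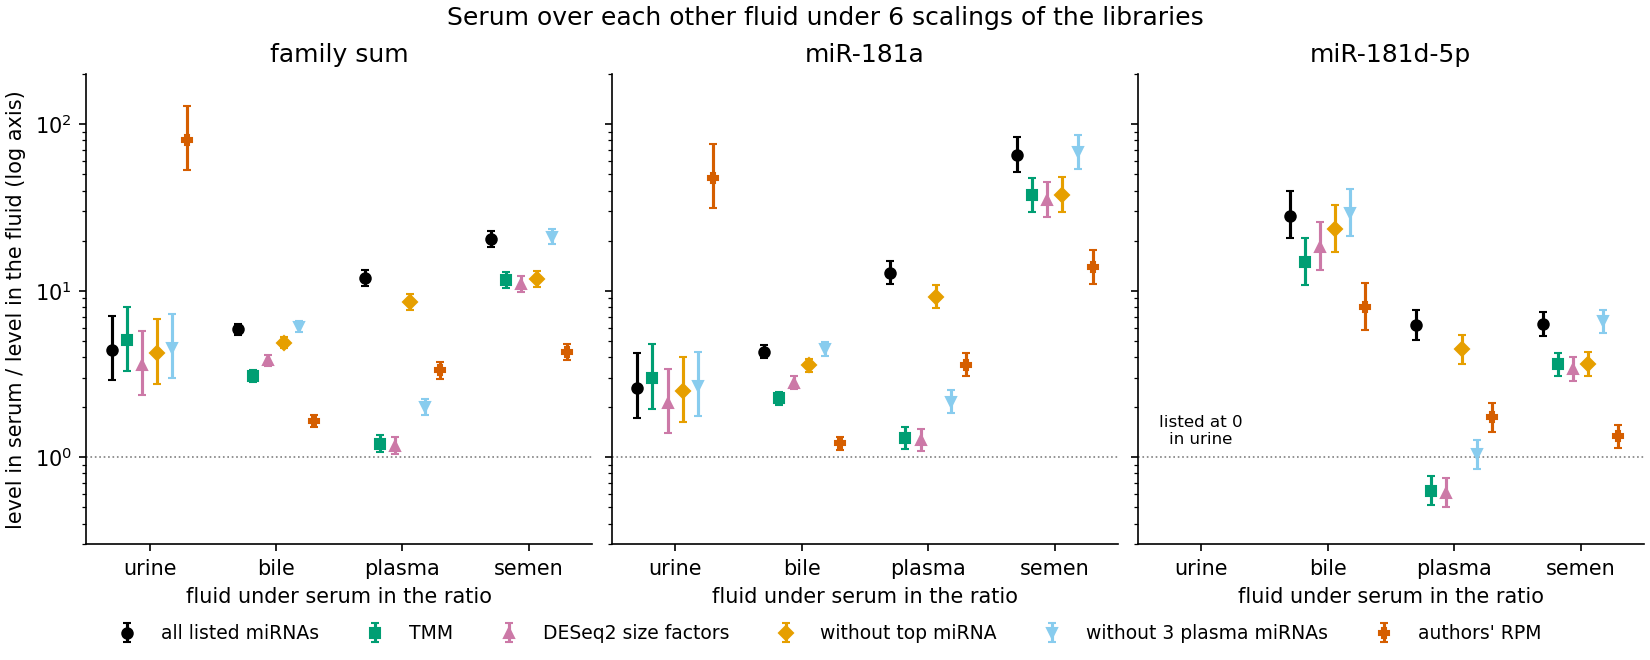
Level in serum divided by the level in each other fluid (log axis) for the family sum, miR-181a and miR-181d-5p under 6 scalings; bars are exact 95% intervals for counting error and the dotted line marks equal levels. Family and miR-181a ratios lie above 1 throughout, while miR-181d-5p against plasma lies at 0.63 with TMM and 0.61 with DESeq2 size factors.

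The family in bile over plasma was 2.04 times on CPM and 2.02 on RPM, but 0.39 times with TMM (0.348 to 0.444), 0.31 with DESeq2 size factors and 0.33 without the plasma-dominating miRNAs. The place of urine turned on the same choice. On CPM it was second after serum, but on the authors' RPM the family stood at 164 in serum, 99.3 in bile, 49.3 in plasma, 38.1 in semen and 2.04 in urine, where listed miRNAs took 0.246% of the library. On that scale miR-181a was close between serum and bile, at 97.2 and 80.2 RPM, a ratio of 1.21 (1.11 to 1.33).

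Names known from cell types in which the family has been studied were set beside it. The 5 lymphoid names (miR-142-3p, miR-142-5p, miR-150, miR-155-5p and miR-342) summed to 10231 CPM in serum, 305 in bile, 289 in plasma and 5.69 in semen, where miR-342 alone was above 0, and all 5 were listed at 0 in urine. On CPM as listed all 5 were highest in serum (37.1% of all names), but with TMM or DESeq2 size factors 3 were highest in serum and 2, miR-142-3p and miR-155-5p, in plasma. Of all names, 20.7% (TMM) and 19.8% (DESeq2) were then highest in serum, and 33.3% and 35.4% in plasma. In serum miR-342 had 6277 CPM, miR-150 2130, miR-142-5p 1059, miR-142-3p 545 and miR-155-5p 219.8. Semen, the fluid with 5.69 CPM of lymphoid names, held miR-181d-5p at 118 CPM.

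The endothelial names summed to 4538 CPM in serum, 577 in bile, 528 in urine, 372 in semen and 205 in plasma. miR-126-3p, the main product of the endothelial miR-126 gene, had 4445 CPM in serum, 528 in urine, 488 in bile, 366 in semen and 191.5 in plasma, and miR-126-5p had at most 93.0 CPM, in serum, but was highest in bile under 3 of the 6 scalings and in plasma under 1. The erythrocyte names (miR-451, miR-144 and miR-486) took 10.21% of serum counts, 0.583% of plasma, 0.468% of urine, 0.417% of bile and 0.000525% of semen counts. On CPM the summed lymphoid, endothelial and erythrocyte names were thus each highest in the library that was highest in miR-181, and their part in its level was not tested.

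The pattern of each member over the fluids that list it above 0 was compared with other names. Candidates had at least 100 counts in some library and were above 0 in all of those fluids. The measure was the largest log2 difference in any fluid after each name's mean log2 CPM was subtracted, so that smaller is more alike. For miR-181b, over 4 fluids and 100 candidates, miR-181a was the nearest, at 0.84, followed by miR-24-3p at 1.16 and miR-17-5p at 1.25. For miR-181a, over 5 fluids, none of the 66 candidates was closer than miR-24-3p at 1.49, followed by miR-20a at 1.79 and miR-23a at 1.80. Listed at 0 in urine, miR-181b was not a candidate for miR-181a, and the 0.84 between them covers their 4 shared fluids.

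Over 4 shared fluids miR-181d-5p lay at 3.14 from miR-181a and at 2.86 from miR-181b. From its neighbour miR-181c it lay at 2.23, which covers only 3 fluids, without plasma, and is not comparable with those values. The nearest names to miR-181d-5p over 4 fluids were miR-19b at 0.32, miR-361-3p at 0.57 and miR-423-3p at 1.103. Among names with at least 1000 counts only miR-423-3p of these was left, with miR-128 and miR-221-3p. miR-181c, compared over 3 fluids, was nearest to miR-30e-5p at 0.14, let-7c at 0.21 and miR-99a at 0.30, on 12 to 51 counts of its own.

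**Figure D4:**
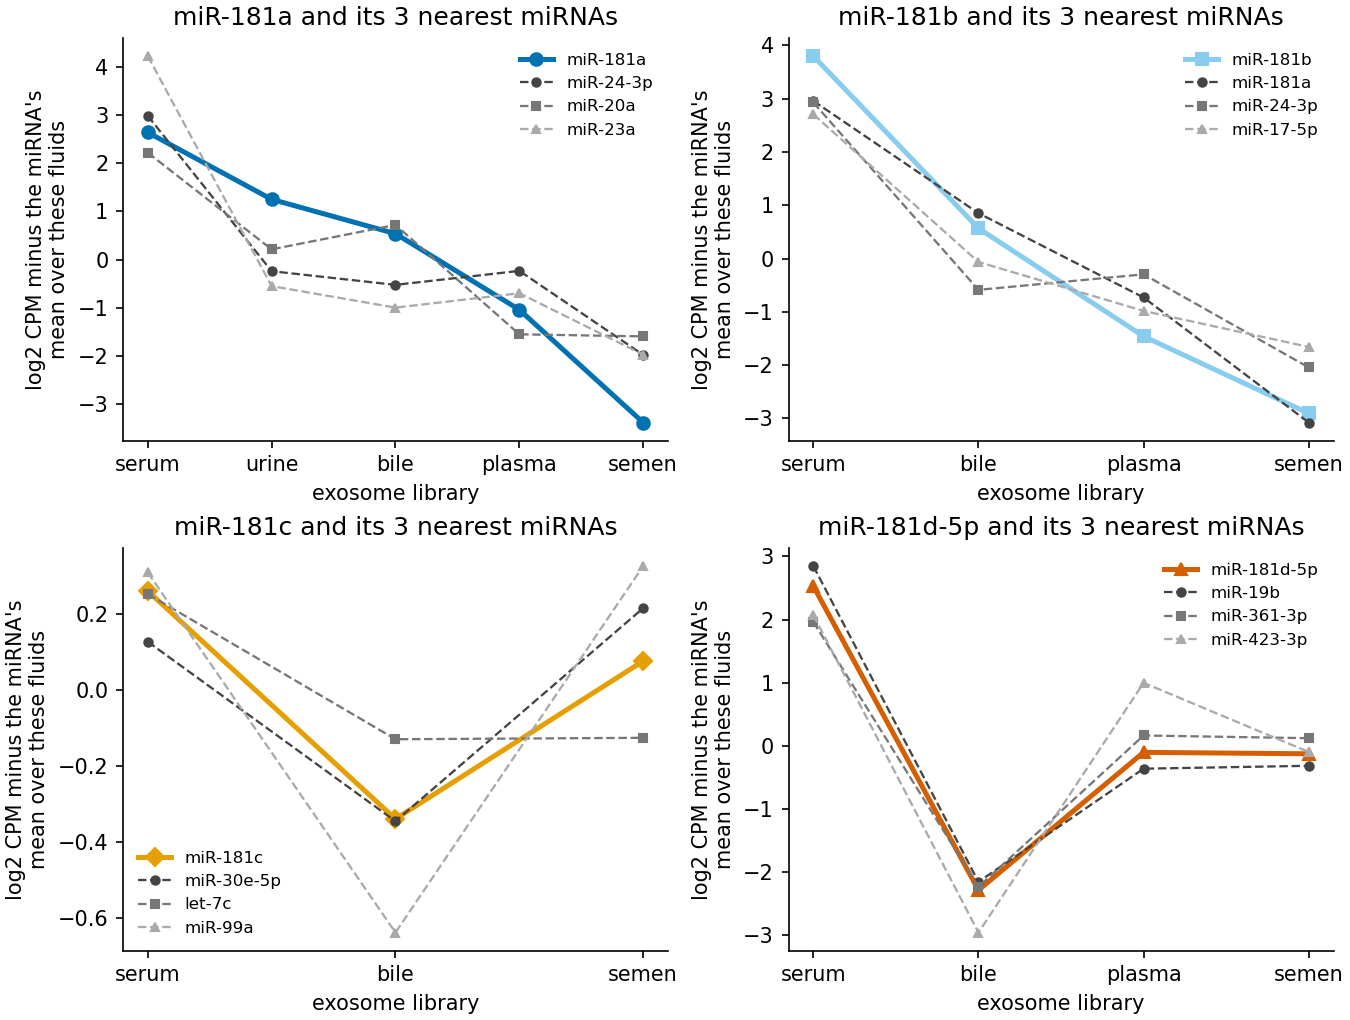
Log2 CPM of each member and its 3 nearest miRNAs, minus the miRNA's own mean over the fluids in which the member was above 0. On CPM miR-181a and miR-181b descend through serum, bile, plasma and semen, whereas miR-181d-5p is lowest in bile. With TMM, DESeq2 size factors or without the plasma-dominating miRNAs, plasma lies above bile for miR-181a and miR-181b too, and miR-181d-5p in plasma is 5.56 to 6.29 times semen.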

How the data were processed

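Small RNA of 14 to 40 nt was gel-purified and sequenced from 1 exosome library per fluid, per the labels' protocols. The labels name 2 different Illumina instruments. bcl2fastq 2.17 and build Sscrofa10.2 are named in the submitters' processing notes. The sources used here name no aligner or miRNA annotation. For each fluid the authors deposited a read count per mature miRNA name. The deposited second column, called normalized in the file headers, holds RPM: count divided by value was constant within 0.00461% in each library.

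From the counts, CPM over the listed names, exact Clopper-Pearson intervals for shares, exact conditional binomial intervals for ratios between libraries and exact conditional intervals for odds ratios were computed (Python 3.11.15, scipy 1.17.1). The ratio code was checked on simulated data. Scaling alternatives used edgeR 4.0.16 (TMM) and DESeq2 1.42.0. A fold of 2 was the limit of size, and a listed 0 was read as 10 counts in lower bounds. Named miRNAs were all miR-181 names, the 3 nearest in pattern per member, and lists of cell type names: all members for lymphoid and endothelial, and for the others at least the 2 most abundant where the list was highest. miR-223 (myeloid) and miR-34b were not analysed here. Members and lists were chosen with earlier results of these data known. RefSeq (Sscrofa11.1) gave gene neighbours only. Depth was 26522 to 2284926 miRNA counts, and with 1 library per fluid no test between fluids was made.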

Additional observations from a re-analysis of the deposited data

How the results depend on the processing

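No paired analysis was possible because each fluid has 1 library, and none could be left out as a replicate. The family in serum stayed above every other fluid under all settings run, but its size moved. Serum over bile was 3.08 times with TMM, 3.82 with DESeq2 size factors, 4.87 without the most abundant miRNA, 1.65 on RPM, 4.31 for miR-181a alone and 9.38 for miR-181b alone. Serum over plasma was 1.21, 1.17, 8.54 and 3.33 times under the same 4 scalings, 2.001 without miR-378, miR-320 and miR-423-5p, and 38.2 for miR-181b alone. Serum over semen was 11.7, 10.9, 11.7 and 4.30 times under the 4 scalings, 65.4 for miR-181a alone and 104 for miR-181b alone. Serum over urine was 80.6 times on RPM, 2.62 for miR-181a alone and 1.58 with each listed 0, miR-181d-3p included, read as 10 counts. Between the other fluids, added after the data were seen, urine over bile turned to 0.61 times (TMM) and 0.0205 (RPM). Bile over plasma turned to 0.39 (TMM), 0.31 (DESeq2) and 0.33 times (without the 3 plasma miRNAs), and was 1.76 without the most abundant miRNA. Plasma over semen was 9.65, 9.34, 1.37 and 1.29 times under the 4 scalings and 10.6 without the 3 plasma miRNAs. The cause of these moves was not tested, except that the RPM total counts reads outside the listed miRNAs. Over that total the family took 0.0164% of the library in serum, 0.000204% in urine, 0.00993% in bile, 0.00493% in plasma and 0.00381% in semen.

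With all miR-181 names in the total, miR-181a held 59.2% in serum, 80.7% in bile, 54.9% in plasma and 18.4% in semen. With miR-181b added, the share of miR-181d-5p was 40.1% in serum, 16.6% in bile and 45.1% in plasma. Of the single members, miR-181d-5p in serum over plasma turned to 0.63 (TMM) and 0.61 times (DESeq2). miR-181c in serum over bile turned to 0.80, 0.99 and 0.43 times with TMM, DESeq2 size factors and RPM, and in serum over semen to 0.65, 0.61 and 0.24 times, and to 0.65 times without the most abundant miRNA. For miR-181a, urine over bile turned to 0.76 (TMM) and 0.0254 times (RPM), and bile over plasma to 0.58 (TMM), 0.45 (DESeq2) and 0.48 times (without the 3 plasma miRNAs). For miR-181b, bile over plasma turned to 0.79, 0.61 and 0.66 times under those 3. For miR-181d-5p, plasma over semen turned to 0.82 times without the most abundant miRNA and 0.77 on RPM. The CPM ratios of miR-181c between serum, semen and bile were within counting error of 1. So were its turned ratios of serum over bile and over semen, except those on RPM. Urine, with 26522 miRNA counts, could list no member under 377 CPM.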
